A study of Mus musculus with 12 samples.

Results

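The G2 and mitosis genes are 45 mouse genes known to reach their highest transcript level when dividing cells prepare for and pass through mitosis. They were taken from a list of symbols and matched through the Ensembl gene IDs of the deposited table. All 45 were among the 53647 gene IDs of the table. All 45 also reached 1 TPM (an abundance per transcript length that adds up to the same total in every library) in at least 2 libraries, as did 15535 genes in all, which were the genes tested. The values come from polyadenylated RNA of mouse embryos at embryonic day 9.5, and the study asked how p53 shapes the response to ionizing radiation. The pregnant mothers received X-rays at 5 Gy per minute to a sum of 30 Gy, and embryos were taken 1 h or 3 h later or without irradiation, each with the label p53 +/+ (wild type) or p53 -/- (knockout). Each of the 6 groups held 2 libraries, numbered 1 and 2. The sources used here give no strain, no allele behind the knockout and no word on whether a library holds 1 embryo or a pool. Nothing says that the libraries of a group are separate litters. A p-value here thus weighs a difference against the spread among these libraries alone, which may be technical.

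Before it divides, a cell builds up cyclins A and B, which bind the kinase CDK1 and switch it on once CDC25 phosphatases remove its inhibitory phosphates. The genes of this programme are copied late in the cell cycle by the B-MYB, MuvB and FOXM1 factors, through a promoter element called CHR (cell cycle genes homology region) and often together with NF-Y bound at CCAAT boxes. In resting or arrested cells the DREAM complex, which p53 engages through its target p21, holds the same promoters silent. DNA damage also blocks entry into mitosis more directly, through checkpoint kinases that act on CDC25 and on CDK1 without any change in transcription. At this stage of development most cells of an embryo divide rapidly.

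The promoters were looked at first, because they show the element by which these genes are known to be turned on and off together. RefSeq promoter windows (GRCm38.p6, 250 bases before to 50 bases after the start) matched 38 of the 45 genes, and none was at hand for Ccna2, Cdc25c, Foxm1, Aurkb, Tpx2, Dlgap5 and Kif20a. The submitters name a later build, so these positions are not on theirs. The letters TTTGAA, the usual core of a CHR, lay on either strand between 50 bases before and 50 bases after the start in 24 of the 38 genes (63.2%), against 5.72% of all 27025 genes of the table. TTCGAA, a rarer form that differs at 1 letter so that no site matches both, was found in that window in 2 genes, Bub1 and Cdc25b (5.26%, against 0.433% of all genes). CCAAT lay on either strand within the 250 bases before the start in 28 genes (73.7%, against 37.5%). In those 250 bases alone TTTGAA was in 12 genes (31.6%, against 18.3%). A list of further mitosis genes, described below, was much alike. It had TTTGAA within 50 bases of the start in 21 of 37 genes (56.8%) and CCAAT before the start in 24 (64.9%). A match describes letters only and shows no bound factor. The following 5 sequences give the 120 bases before the start, read toward the gene, for the genes of the kinase CDK1, the anaphase activator CDC20, the spindle motor KIF11, the ubiquitin-conjugating enzyme UBE2C and the microtubule protein CKAP2. Capitals mark TTTGAA and CCAAT or their reverse complements TTCAAA and ATTGG.
Cdk1 (chr10:69352913-69353032, minus strand): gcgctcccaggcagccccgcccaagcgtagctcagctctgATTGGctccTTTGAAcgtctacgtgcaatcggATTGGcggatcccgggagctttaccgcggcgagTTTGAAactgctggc
Cdc20 (chr4:118437344-118437463, minus strand): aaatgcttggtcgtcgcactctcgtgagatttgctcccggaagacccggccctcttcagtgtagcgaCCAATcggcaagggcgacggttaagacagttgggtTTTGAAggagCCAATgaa
Kif11 (chr19:37376262-37376381, plus strand): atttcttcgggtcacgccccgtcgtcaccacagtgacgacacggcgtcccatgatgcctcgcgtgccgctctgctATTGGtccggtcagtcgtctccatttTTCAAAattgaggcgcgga
Ube2c (chr2:164769809-164769928, plus strand): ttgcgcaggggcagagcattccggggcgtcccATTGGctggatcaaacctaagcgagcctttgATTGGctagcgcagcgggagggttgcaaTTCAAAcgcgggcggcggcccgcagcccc
Ckap2 (chr8:22185820-22185939, minus strand): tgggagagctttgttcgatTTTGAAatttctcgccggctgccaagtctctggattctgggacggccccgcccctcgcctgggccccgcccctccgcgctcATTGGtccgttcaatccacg

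In the first 4 of these sequences a TTTGAA or its reverse complement lies in the last 50 bases, and at least 1 CCAAT box lies in the same 120 bases. Ckap2 has a TTTGAA too, but farther from the start than 50 bases, so it is not among the 24. In 5 genes whose values are described below, the match sat close to the start, and 30 bases around it are shown to let the flanks be compared.
Aurka (chr2:172370521-172370550, minus strand): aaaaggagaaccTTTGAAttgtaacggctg
Racgap1 (chr15:99651634-99651663, minus strand): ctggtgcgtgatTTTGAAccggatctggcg
Prc1 (chr7:80294434-80294463, plus strand): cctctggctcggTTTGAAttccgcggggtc
Hmmr (chr11:40733412-40733441, minus strand): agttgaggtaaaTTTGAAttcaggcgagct
Ccnb2 (chr9:70421533-70421562, minus strand): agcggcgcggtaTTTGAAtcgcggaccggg

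The genotype labels were checked against p53 itself. Trp53, the gene of p53, lay between 66.8 and 114 TPM in the irradiated libraries labelled wild type and between 209.5 and 250.1 TPM in those labelled knockout, so its transcript was not lost under the knockout label. The untreated libraries numbered 1 and 2 stood at 114 and 211 TPM under the wild type label and at 265 and 79.1 TPM under the knockout label. Each untreated library numbered 2 was thus within the Trp53 range of the irradiated libraries of the other label, and so went against its own label in this gene. Whether they were exchanged was not tested. They were kept as labelled, and the counts that rest on untreated embryos are also given without both of them, where the 1 untreated library left per label is assumed to vary like the other groups. Where the deletion lies in the gene is not given, so a transcript alone does not settle the genotype. Cdkn1a, the gene of p21 and a target of p53, stood at 5.91 and 6.6 TPM untreated, 6.01 and 8.36 at 1 h and 6.96 and 6.18 at 3 h under the wild type label. It stood at 6.88 and 5.38 TPM untreated, 79.3 and 76.2 at 1 h and 499 and 444 at 3 h under the knockout label (limma adjusted p = 2.27e-06 at 3 h). The rise of Cdkn1a was thus seen in the libraries labelled knockout, which goes against the labels, and every direction below refers to the library labelled wild type or knockout, not to a genotype.

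Facts of the whole series that touch the results are few. Between 13724 and 14357 genes reached 1 TPM in a library, and TPM keeps no read depth, so the depth is unknown and no counting error can be given. Both 1 h libraries numbered 2 stood apart, with 19.7% and 19.8% of their TPM in 90 ribosomal protein genes, against 12.0% to 14.2% in the other 10. Same-numbered libraries shared deviations from the means of their groups, and a fit with the number as a block is therefore given beside the main fit. Of the 45 genes, 23 were higher in the library numbered 2 in 6 of 6 groups, 5 were lower in 6 of 6 groups and 17 were mixed.

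In untreated embryos the genes spanned a wide range of levels, and no difference between the labels passed the test. Over the 4 untreated libraries Cdk1, the central mitotic kinase, was the most abundant at 464 ± 40.7 TPM (SD, n = 4), followed by Ube2c at 346 ± 47.9 TPM (SD, n = 4), Top2a at 264 ± 44.2 TPM (SD, n = 4) and Birc5 at 264 ± 20.4 TPM (SD, n = 4). Cdk1 ranged from 428 to 511 TPM and Ube2c from 298 to 397 TPM, so their ranges did not meet, while those of Top2a and Birc5 overlapped. Of the 45 genes, 0 were called between the labels in untreated embryos, where 0.0193% of all genes were called, and 0 had an unadjusted p under 0.05. Since by Trp53 each untreated label held 1 library like either label, this contrast says little on whether the labels differed before irradiation. Leaving out both libraries numbered 2 also gave 0 calls, as did 0.00% of all genes. The 3 smallest p belonged to Cdc25c, Mki67 and Cenpf. Cdc25c, the gene of a CDK1-activating phosphatase, differed by -0.21 on the log2 scale (knockout minus wild type label, 95% interval -0.77 to 0.36, limma adjusted p = 1.00).

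**Figure D1:**
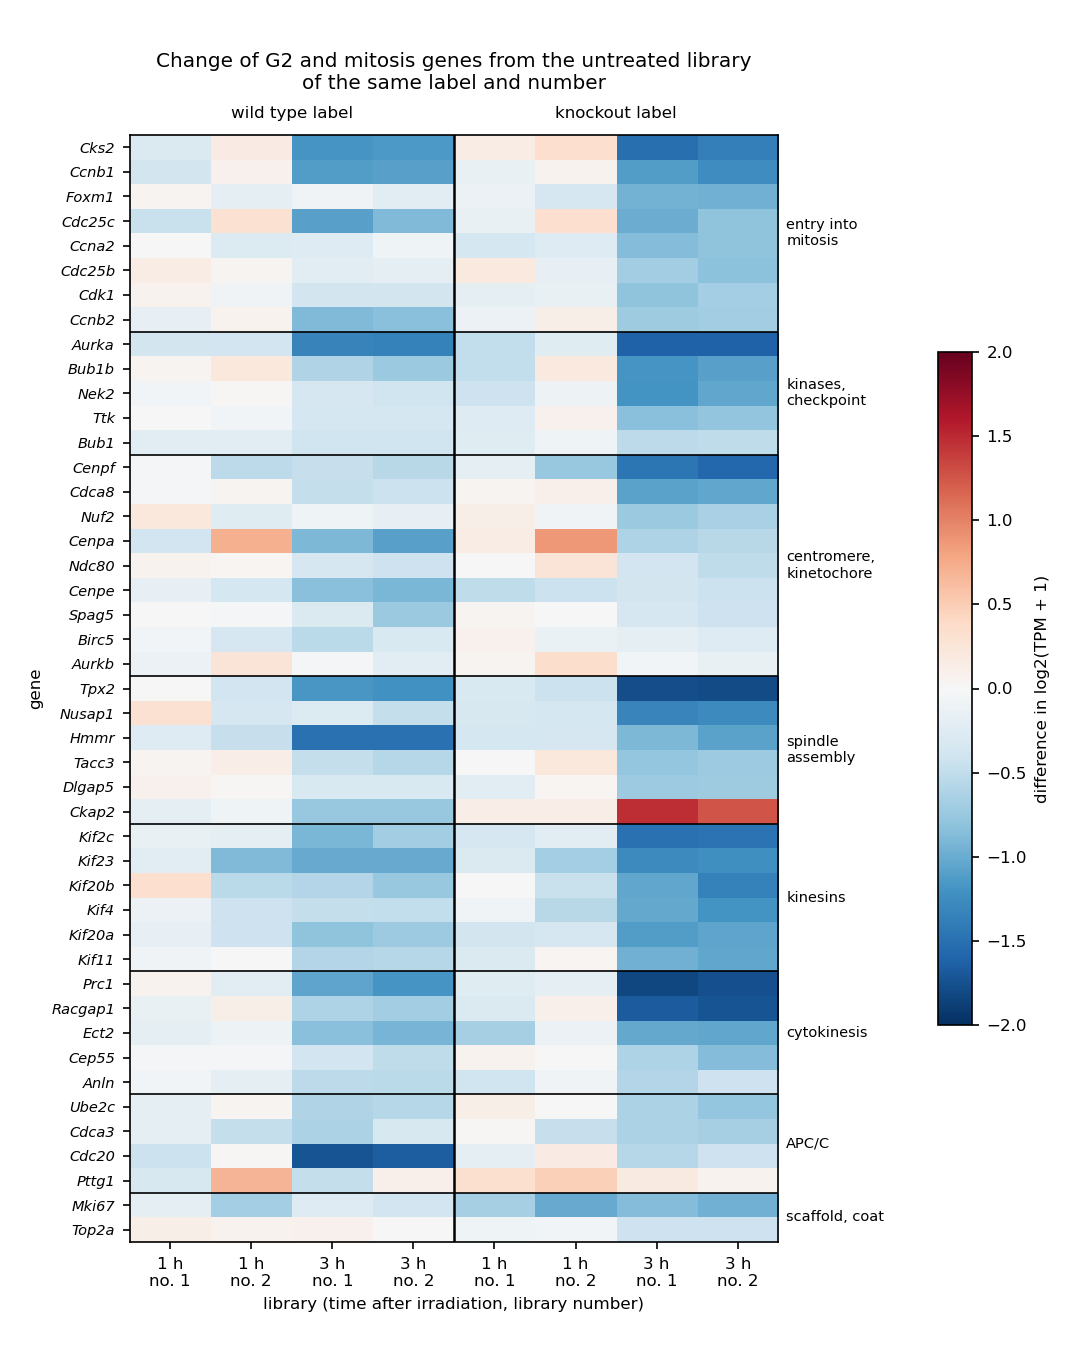
Difference in log2(TPM + 1) of each of the 45 genes (rows, by role) between each irradiated library (columns) and the untreated library of the same label and number, from blue for lower to red for higher. The 3 h columns under the knockout label are the darkest blue, Ckap2 is the red exception there, and Hmmr and Cdc20 are darker under the wild type label. Columns numbered 2 are set against the untreated libraries that stood apart in Trp53.

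At 3 h after irradiation 43 of the 45 genes had lower values than in untreated embryos within both library numbers under each label, and those that passed the test were under the knockout label. There 22 of the 45 genes fell and 1 rose (limma on log2(TPM + 1), Benjamini-Hochberg adjusted p under 0.05), where 5.87% of all genes fell and 6.25% rose. Over the 45 genes the median log2 fold change came to -0.84, a 1.78-fold lower level, against -0.12 over all genes tested. Both 3 h libraries were lower than both untreated libraries for 38 genes, a pattern that 31.6% of all genes showed, and the 43 genes lower within both library numbers compare with 49.6% of all genes. In whole embryos, fewer cells in mitosis and less transcript per cell cannot be told apart. With the library number as a block, 39 genes fell and 1 rose (18.1% and 11.1% of all genes). The count of 23 calls shrank to 11 without the knockout-labelled 3 h library numbered 1, to 12 without the 3 h library numbered 2 and to 14 without the untreated library numbered 2. In all 12 fits that leave out 1 library, 11 genes stayed called: Aurka, Nek2, Cenpf, Cdca8, Tpx2, Nusap1, Kif20a, Kif2c, Kif4, Prc1 and Racgap1. When both untreated libraries numbered 2 were left out, 9 of these 11 fell and no gene of the 45 rose (1.10% and 3.08% of all genes), Nusap1 and Kif4 losing their calls, with a median of -0.73 against -0.03 over all genes. By role these were 2 of 5 mitotic kinases, 2 of 9 centromere and passenger genes, 1 of 6 spindle assembly factors, 2 of 6 kinesins, 2 of 5 cytokinesis genes and 0 in the other 3 groups. With the block as well, 28 fell and 1 rose, where 11.4% of all genes were called.

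The wild type label had 0 of the 45 genes called at 3 h, as were 0.00% of all genes. Of the 45, 22 had an unadjusted p under 0.05. No share of all genes is given for such unadjusted counts, here or for the other comparisons, so they are descriptions alone. The median over the 45 was -0.52, a 1.43-fold lower level, against 0.02 over all genes. Both 3 h libraries were below both untreated ones for 35 genes (13.1% of all genes), and 43 genes were lower within both library numbers (27.6%). With the library number as a block 11 genes fell, where 0.148% of all genes fell: Ccnb1, Ccnb2, Cks2, Aurka, Cenpe, Tpx2, Hmmr, Kif20a, Kif2c, Prc1 and Cdc20. All 11 were also among the 39 that fell under the knockout label with the block, 11 of 11 of the first list and 11 of 39 of the second. The lists share no library, but both come from 1 fit with the same spread and number term for each gene. Since 39 of the 45 genes fell under the knockout label, a near-complete overlap was likely, and it is not separate evidence. The 11 calls became 0 with the block and without both untreated libraries numbered 2, where 0.00650% of all genes were called and the median of the 45 without the block was -0.49.

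The genes that trigger mitosis included 3 of 8 that fell under the knockout label, Cdk1, Cdc25b and Foxm1, and 8 of 8 fell with the block. For these and each role group below, 5.87% of all genes fell in the same comparison, and 18.1% with the block. Foxm1 (ENSMUSG00000001517), the gene of a transcription factor that drives late cell cycle genes, stood at 57.99 and 73.3 TPM untreated, 60.2 and 63.8 at 1 h and 55.1 and 63.05 at 3 h under the wild type label. Foxm1 stood at 56.5 and 75.2 TPM untreated, 51.8 and 59.3 at 1 h and 28.8 and 38.1 at 3 h under the knockout label (log2 fold change -0.96 at 3 h, SE 0.209, limma adjusted p = 0.02). Both knockout-labelled libraries at 3 h were thus below the other 10, while under the wild type label the 3 h and untreated values overlapped. Cdc25b (ENSMUSG00000027330), which encodes a phosphatase that activates CDK1, stood at 38.5 and 41.4 TPM untreated, 42.6 and 43.04 at 1 h and 33.2 and 36.5 at 3 h under the wild type label. The knockout-labelled libraries had 32.2 and 43.8 TPM untreated, 37.1 and 39.1 at 1 h and 19.4 and 24.3 at 3 h (-0.76 on the log2 scale, SE 0.18, limma adjusted p = 0.0281). Its 3 h values were the lowest of the series there, and below the untreated ones under the wild type label as well. Cdk1 stood at 511 and 433 TPM untreated and 292 and 269.7 TPM at 3 h under the knockout label (1.67-fold lower, limma adjusted p = 0.0346).

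Ccnb1 and Cks2 had large changes but also large differences between the library numbers. Ccnb1, the gene of cyclin B1, stood at 107 and 189 TPM untreated, 82.7 and 201 at 1 h and 48.98 and 88.6 at 3 h under the wild type label. With 85.5 and 191 TPM untreated, 77.4 and 200.1 at 1 h and 39.01 and 80.2 at 3 h under the knockout label, its library numbered 2 was above that numbered 1 in every group, by more than 1.5-fold. Its log2 fold changes at 3 h were -1.1 and -1.18 under the wild type and knockout labels (SE 0.659 for both), with limma adjusted p = 1.00 and 0.323. With the block these were 0.048 and 0.000962. Cks2, which encodes a small subunit bound to CDK1, behaved alike, with log2 fold changes of -1.17 and -1.44 that were called with the block alone (limma adjusted p = 0.0205 and 0.000147). Ccnb2, the gene of cyclin B2, stood at 96.2 and 107 TPM untreated and 51.6 and 59.8 TPM at 3 h under the wild type label, and at 90.8 and 104 and 55.2 and 63.9 TPM under the knockout label. These ranges did not overlap within either label. Ccna2, the gene of cyclin A2, had a log2 fold change of -0.18 under the wild type and -0.84 under the knockout label, neither of them called without the block (limma adjusted p = 0.0349 for their difference with the block). Cdc25c stood at 26.7 and 25.4 TPM untreated, 19.4 and 31.5 at 1 h and 11.96 and 13.4 at 3 h under the wild type label and at 22.2 and 22.6 TPM untreated, 19.9 and 28.9 at 1 h and 10.7 and 12.6 at 3 h under the knockout label. All 4 values at 3 h were below all 8 others, and neither label's change was called in the main fit (limma adjusted p = 0.911 and 0.0516).

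**Figure D2:**
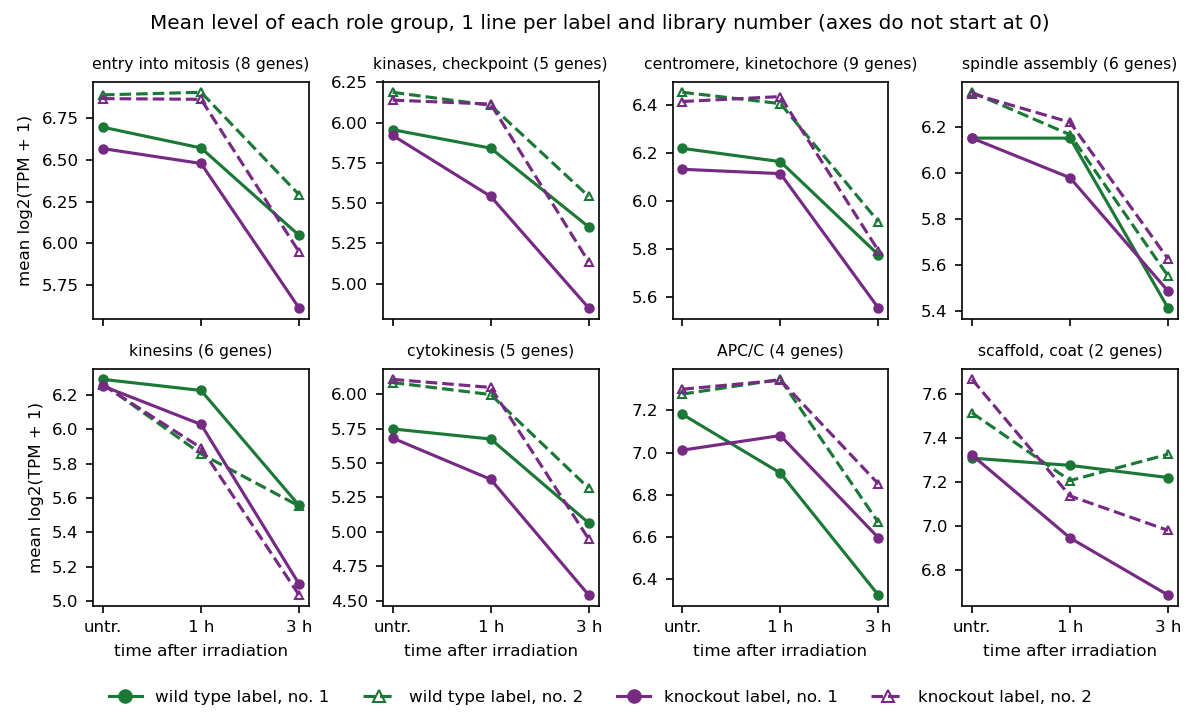
Mean log2(TPM + 1) of each of 8 role groups (panels) by time after irradiation, with 1 line for each label and library number. In the panels for kinases, kinesins and cytokinesis both lines of each label go down from 1 h to 3 h, and those of the knockout label end lowest. For spindle assembly and the anaphase-promoting complex the wild type label ends lower within each library number. The spindle assembly mean includes Ckap2, at a log2 difference of 1.99 between the labels at 3 h. Of its 6 genes 4 were lower under the knockout label there, with a median difference of -0.34. In the scaffold panel the wild type-labelled line numbered 2 rises from 1 h to 3 h.

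Among the mitotic kinases and the spindle checkpoint, 3 of 5 genes fell under the knockout label, Aurka, Nek2 and Bub1b, and 5 of 5 with the block. Aurka (ENSMUSG00000027496) encodes Aurora A, the kinase that matures centrosomes and builds the spindle poles. It stood at 109 and 119 TPM untreated, 84.2 and 91.1 at 1 h and 42.4 and 46.1 at 3 h under the wild type label and at 104 and 109 TPM untreated, 73.4 and 92.6 at 1 h and 33.1 and 35 at 3 h under the knockout label. The 4 values at 3 h were the lowest of the 12, and the 1 h values lay between them and the untreated ones. Aurka was 3.07-fold lower at 3 h under the knockout label (log2 fold change -1.62, SE 0.153, limma adjusted p = 0.000308). It was also 2.54-fold lower under the wild type label (-1.34, SE 0.153, limma adjusted p = 0.0823, and 0.00299 with the block). Nek2 (ENSMUSG00000026622), which encodes a kinase that lets centrosomes separate, stood at 41.9 and 38.8 TPM untreated, 40.4 and 39.3 at 1 h and 33.1 and 29.2 at 3 h under the wild type label. Nek2 stood at 43.8 and 39.8 TPM untreated, 32.7 and 37.1 at 1 h and 18.5 and 18.9 at 3 h under the knockout label (log2 fold change -1.12, SE 0.14, limma adjusted p = 0.00144), and its 3 h values there were below the other 10 libraries. Bub1b, a gene of the spindle checkpoint, which delays anaphase until chromosomes are attached, had a log2 fold change of -1.13 (limma adjusted p = 0.00621). The other checkpoint genes Bub1 and Ttk had log2 fold changes of -0.52 and -0.81 and were called with the block alone.

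Of the centromere, kinetochore and passenger complex genes, 3 of 9 fell under the knockout label, Cenpf, Nuf2 and Cdca8, and 5 of 9 with the block. Cenpf (ENSMUSG00000026605) encodes a large protein that joins kinetochores in G2 and early mitosis. It stood at 42.1 and 49.97 TPM untreated, 41.1 and 34.4 at 1 h and 30.2 and 33.6 at 3 h under the wild type label and at 46.2 and 56.1 TPM untreated, 40.9 and 32.7 at 1 h and 16.4 and 18.3 at 3 h under the knockout label, where both 3 h values were below the other 10 (log2 fold change -1.5, SE 0.184, limma adjusted p = 0.00127). Cdca8 (ENSMUSG00000028873), the gene of borealin, a passenger complex subunit, stood at 172 and 175 TPM untreated, 167 and 182 at 1 h and 123 and 129.5 at 3 h under the wild type label. Cdca8 stood at 164 and 174 TPM untreated, 171 and 188 at 1 h and 77.8 and 83.8 at 3 h under the knockout label (log2 fold change -1.06, SE 0.134, limma adjusted p = 0.00147). Among its partners in the complex, Birc5, the gene of survivin, had a log2 fold change of -0.22 under the knockout label, and Aurkb, the gene of Aurora B, had -0.10. Aurkb stood at 58.5 and 92.3 TPM untreated, 53.7 and 111 at 1 h and 57.04 and 78.5 at 3 h under the wild type label and at 51.9 and 87.2 TPM untreated, 53.7 and 112 at 1 h and 50.1 and 78.2 at 3 h under the knockout label, so that its 3 h and untreated values overlapped under both. The sign of Aurkb at 3 h turned to 0.01 with median-of-ratios size factors, and its 95% interval under the knockout label was -1.2 to 0.99, which spans a fall or rise of more than 1.5-fold.

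Cenpe (ENSMUSG00000045328), the gene of a kinetochore motor, had its lowest values under the wild type label. It stood at 37.5 and 42.8 TPM untreated, 33.5 and 33.5 at 1 h and 20.5 and 22.1 at 3 h there and at 36.1 and 44.1 TPM untreated, 25.1 and 32.5 at 1 h and 27.8 and 32.6 at 3 h under the knockout label, and the 3 h values of the labels did not overlap. Its log2 fold change at 3 h was -0.88 under the wild type label and -0.40 under the knockout label (SE 0.18 for both), and the difference between these was 0.48 (limma adjusted p = 0.434, and 0.074 with the block). Cenpa, the centromeric histone, reached 258 and 262 TPM in the 1 h libraries numbered 2, against 85.5 and 100.2 TPM in those numbered 1, which is the widest gap between numbers among its groups. Those 2 libraries are the ones with the high ribosomal share, and the part of that share in the Cenpa values was not tested. The outer kinetochore genes Ndc80 and Nuf2 and the spindle-kinetochore gene Spag5 had log2 fold changes of -0.45, -0.70 and -0.37 under the knockout label, of which Nuf2 alone was called in the main fit (limma adjusted p = 0.0484).

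Of the 6 spindle assembly factors, 5 fell under the knockout label and Ckap2 rose. Tpx2 (ENSMUSG00000027469), whose product activates Aurora A and nucleates spindle microtubules, stood at 159 and 155 TPM untreated, 158 and 119 at 1 h and 70.5 and 66.3 at 3 h under the wild type label. Tpx2 stood at 173 and 155 TPM untreated, 139 and 115 at 1 h and 50.02 and 44.3 at 3 h under the knockout label (3.43-fold lower at 3 h, -1.78 on the log2 scale, SE 0.179, limma adjusted p = 0.000438). The 4 values at 3 h were below the other 8, and under the wild type label the log2 fold change of -1.18 was called with the block (limma adjusted p = 0.0103) and not without it (0.22). Nusap1 (ENSMUSG00000027306), the gene of a microtubule-bundling protein, stood at 54.9 and 69.8 TPM untreated, 68.04 and 54.9 at 1 h and 45.2 and 49.8 at 3 h under the wild type label. Nusap1 stood at 62.6 and 74.2 TPM untreated, 50 and 57.7 at 1 h and 24.4 and 29.97 at 3 h under the knockout label (log2 fold change -1.3, SE 0.194, limma adjusted p = 0.00327), and its 3 h values there were the lowest of the 12. Hmmr, the gene of a spindle pole protein, had its lowest values at 3 h under the wild type label. It stood at 45.2 and 59.7 TPM untreated and 15.5 and 20.6 TPM at 3 h under the wild type label and at 41.7 and 59.2 and 21.9 and 27.8 TPM under the knockout label (2.81-fold and 1.97-fold lower). That difference between labels was 0.51 on the log2 scale (SE 0.373, limma adjusted p = 0.618, and 0.0523 with the block). Tacc3 and Dlgap5, whose products stabilise spindle microtubules, were 1.69-fold and 1.65-fold lower under the knockout label (limma adjusted p = 0.0123 and 0.0479).

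Ckap2 (ENSMUSG00000037725), which encodes a microtubule-stabilising protein of the mitotic spindle, was the 1 gene of the 45 that rose. It stood at 35.2 and 44.1 TPM untreated, 31.1 and 41.3 at 1 h and 20.5 and 25.7 at 3 h under the wild type label, where both 3 h values were the lowest. It stood at 28.5 and 45 TPM untreated, 31.5 and 49.5 at 1 h and 81.6 and 109 at 3 h under the knockout label, and both 3 h values were above the other 10 libraries. Ckap2 was 2.59-fold higher at 3 h under the knockout label (log2 fold change 1.37, SE 0.304, limma adjusted p = 0.0213). The corresponding value under the wild type label was -0.75 (SE 0.304, limma adjusted p = 1.00, and 0.0822 with the block). The difference between the 2 responses was 2.13 (SE 0.43, 95% interval 1.15 to 3.11, limma adjusted p = 0.0343). The rise under the knockout label lost its call without either 3 h library of that label or without its untreated library numbered 1, with log2 fold changes between 1.05 and 1.69 over the 12 fits. Without both untreated libraries numbered 2 it was 1.69 (limma adjusted p = 0.0562, and 0.00531 with the block). The difference of the responses lost its call without any of 7 libraries, both 3 h libraries of each label, both untreated wild type-labelled ones and the untreated knockout-labelled library numbered 1, with values between 1.81 and 2.45.

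**Figure D3:**
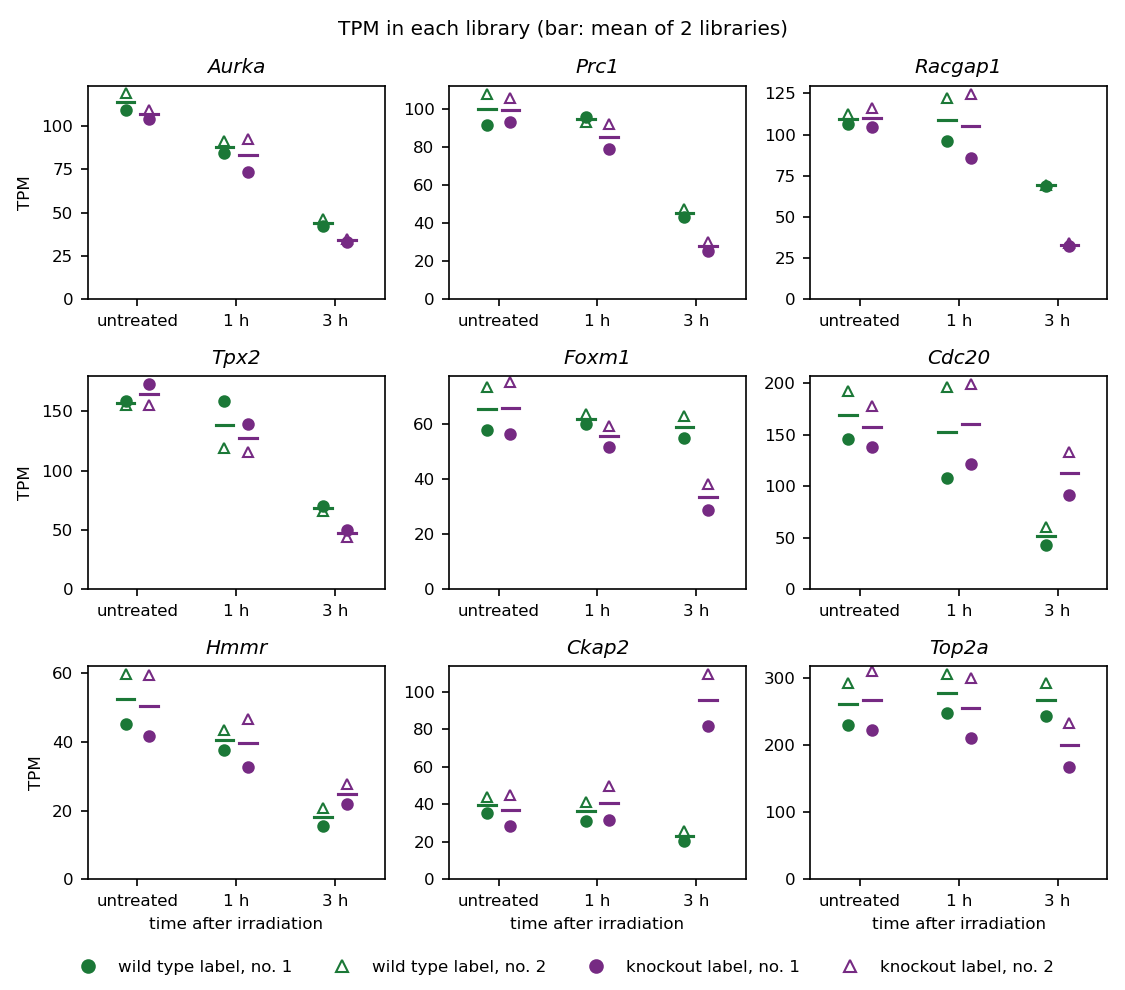
TPM (vertical axes, from 0) of 9 genes in each of the 12 libraries by time after irradiation, with filled circles for libraries numbered 1, open triangles for those numbered 2 and a bar at the mean of 2 libraries. Aurka, Prc1, Racgap1 and Tpx2 are lower at 3 h under both labels, Foxm1 under the knockout label, and Ckap2 is high at 3 h under the knockout label alone.

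The kinesins, motors that slide spindle microtubules or move chromosomes, had the largest median change of the role groups under the knockout label, -1.15. That was close to the -1.12 of the mitotic kinases and spindle checkpoint. Of the kinesins 4 of 6 were called, and 6 of 6 with the block. Kif2c (ENSMUSG00000028678), whose product takes apart microtubule ends at centromeres, stood at 78.1 and 68.8 TPM untreated, 70.3 and 59.7 at 1 h and 40.8 and 41.9 at 3 h under the wild type label. Kif2c stood at 74.8 and 70.1 TPM untreated, 59.1 and 60.1 at 1 h and 25.98 and 24.4 at 3 h under the knockout label (log2 fold change -1.49, SE 0.141, limma adjusted p = 0.00032). Its values at 3 h were below all others within each label, and those of the knockout label were below those of the wild type label. Kif20a (ENSMUSG00000003779), the gene of a motor needed for cytokinesis, stood at 144 and 139.7 TPM untreated, 129 and 104 at 1 h and 82.01 and 83.9 at 3 h under the wild type label and at 151 and 135 TPM untreated, 117 and 107 at 1 h and 68.8 and 64.5 at 3 h under the knockout label. It went down from untreated to 1 h and again to 3 h in each label and number (log2 fold change -1.09 at 3 h, SE 0.151, limma adjusted p = 0.00226 under the knockout label). Kif4, a chromosome-bound motor, and Kif23, a motor of the central spindle, also fell (log2 fold changes -1.11 and -1.25, limma adjusted p = 0.00372 and 0.0322). Kif11, which pushes spindle poles apart, and Kif20b had changes of -1.0 and -1.19 and were called with the block alone (limma adjusted p = 0.00172 and 0.0039).

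Cytokinesis genes held the largest single fall, that of Prc1, although Tpx2, described above, was close to it at -1.78 on the log2 scale. Prc1 (ENSMUSG00000038943), which encodes the protein that bundles microtubules of the spindle midzone, stood at 91.5 and 108 TPM untreated, 95.8 and 93.04 at 1 h and 43.3 and 47.2 at 3 h under the wild type label and at 92.9 and 105 TPM untreated, 78.7 and 91.95 at 1 h and 25.6 and 30.3 at 3 h under the knockout label. It was 3.47-fold lower at 3 h under the knockout label (log2 fold change -1.79, SE 0.161, limma adjusted p = 0.000244) and 2.17-fold lower under the wild type label (limma adjusted p = 0.195, and 0.00979 with the block). The 1 h values overlapped the untreated ones under the wild type label, and all 4 values at 3 h were below the other 8. Racgap1 (ENSMUSG00000023015), whose product pairs with KIF23 at the midzone, stood at 106 and 113 TPM untreated, 95.8 and 122 at 1 h and 68.8 and 69.5 at 3 h under the wild type label. Racgap1 stood at 105 and 116 TPM untreated, 85.8 and 125 at 1 h and 32.2 and 34.4 at 3 h under the knockout label (log2 fold change -1.7, SE 0.199, limma adjusted p = 0.00102). At 3 h each library of the knockout label was below each library of the wild type label. Cep55, a gene of the final abscission step, fell too (-0.74, limma adjusted p = 0.0185), while Ect2, needed for the cleavage furrow, and Anln, a scaffold of the contractile ring, had changes of -1.03 and -0.49 that were called with the block alone.

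The genes of mitotic exit, where the anaphase-promoting complex tags proteins for destruction, had 0 of 4 called under the knockout label and 3 of 4 with the block. Ube2c (ENSMUSG00000001403), the ubiquitin-conjugating enzyme of that complex, stood at 312 and 375 TPM untreated, 276 and 388 at 1 h and 207 and 253 at 3 h under the wild type label and at 298 and 397 TPM untreated, 324 and 399 at 1 h and 193 and 232 at 3 h under the knockout label (1.5-fold and 1.63-fold lower at 3 h, limma adjusted p = 1.00 and 0.106). Cdca3 (ENSMUSG00000023505), the gene of an adaptor that marks the CDK1 inhibitor WEE1 for destruction, stood at 249.6 and 213 TPM untreated, 220.01 and 153 at 1 h and 161 and 170.3 at 3 h under the wild type label and at 233 and 227 TPM untreated, 236 and 164 at 1 h and 149 and 143 at 3 h under the knockout label (-0.47 and -0.65 on the log2 scale at 3 h). For both genes the 3 h libraries were below the untreated ones of the same label. Pttg1 (ENSMUSG00000020415), the gene of securin, which holds back the cut of sister chromatids, stood at 37.5 and 36.1 TPM untreated, 29.7 and 58.3 at 1 h and 26.6 and 38.99 at 3 h under the wild type label and at 27.6 and 36.8 TPM untreated, 34.6 and 51.4 at 1 h and 31.5 and 38.8 at 3 h under the knockout label. The 3 h and untreated values of Pttg1 overlapped under both labels (log2 fold change 0.13, 95% interval -0.65 to 0.91 under the knockout label). Cdc20 (ENSMUSG00000006398), the activator of the complex at anaphase, is given in full because its change was the largest under the wild type label, a choice made after its values were seen. It stood at 146 and 193 TPM untreated, 108 and 197 at 1 h and 43.5 and 60.8 at 3 h under the wild type label and at 138 and 178 TPM untreated, 121 and 199 at 1 h and 92.1 and 133 at 3 h under the knockout label, and the 3 h values of the labels did not overlap. Its log2 fold change at 3 h was -1.68 under the wild type label (SE 0.365, limma adjusted p = 0.668, and 0.00569 with the block) and -0.50 under the knockout label (limma adjusted p = 0.473, and 0.0233 with the block).

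Of the pair that packs and coats chromosomes, Mki67 fell under the knockout label and Top2a was called with the block alone. Mki67 (ENSMUSG00000031004), the gene of the Ki-67 antigen that coats mitotic chromosomes, stood at 108 and 113 TPM untreated, 95.4 and 70.01 at 1 h and 90.04 and 86.8 at 3 h under the wild type label and at 113 and 132 TPM untreated, 70.9 and 64.6 at 1 h and 61.98 and 67.2 at 3 h under the knockout label (log2 fold change -0.91 at 3 h, SE 0.173, limma adjusted p = 0.0108). The 1 h and 3 h values of Mki67 overlapped under the knockout label. Top2a (ENSMUSG00000020914), the gene of topoisomerase II alpha, stood at 230.02 and 293 TPM untreated, 248 and 307 at 1 h and 244 and 293 at 3 h under the wild type label and at 223 and 311 TPM untreated, 211 and 301 at 1 h and 167 and 233 at 3 h under the knockout label, with overlap between 3 h and untreated values in both (log2 fold changes 0.04 and -0.41).

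At 1 h no gene of the 45 was called under either label. The knockout label had 0 calls, where 0.103% of all genes were called, and 20 were lower within both library numbers (36.8% of all genes). Their median log2 fold change was -0.13, against -0.06 over all genes, and 5 had an unadjusted p under 0.05. The wild type label also had 0 calls, as did 0.00% of all genes, and 17 were lower within both numbers (29.4%), with a median of -0.07 against -0.02 and 2 genes at an unadjusted p under 0.05. Mki67 had the smallest p under both labels, with log2 fold changes of -0.43 and -0.84 (limma adjusted p = 1.00 and 0.18). Aurka and Kif20a followed under the wild type label (-0.37 and -0.29, limma adjusted p = 1.00 for both), and Cenpe and Cenpf under the knockout label (-0.47 and -0.47, limma adjusted p = 0.48 and 0.503). Between the labels at 1 h, 0 of the 45 genes were called (0.0386% of all genes), the smallest p being those of Mki67, Nek2 and Cenpe. The difference of the 1 h responses also gave 0 calls (0.00644%), with Mki67 at -0.41, Nek2 at -0.24 and Nusap1 at -0.32 on the log2 scale (limma adjusted p = 1.00 for all). In each of these comparisons between labels, 0 genes had an unadjusted p under 0.05 and 0 were called with the block.

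From 1 h to 3 h under the knockout label 17 genes fell and Ckap2 rose (4.31% and 6.89% of all genes), with a median of -0.74, and 37 fell and 1 rose with the block (15.8% and 13.4%). The 18 calls became 7 without the knockout-labelled 3 h library numbered 1 and 6 without that numbered 2. They became 11 (6.77% of all genes) without both untreated libraries numbered 2, which enter here through the shared spread. Prc1, Kif2c and Cdca8 had the smallest p, with log2 fold changes of -1.58, -1.21 and -1.14 (limma adjusted p = 0.000615, 0.00118 and 0.00122). The wild type label gave 0 calls between these times (0.00%), 17 had an unadjusted p under 0.05, and 7 fell with the block (0.0708% of all genes): Ccnb2, Cks2, Aurka, Tpx2, Hmmr, Prc1 and Cdc20. These 7 became 0 with the block and without both untreated libraries numbered 2 (0.0130%). The median there was -0.46 against 0.04 over all genes. This comparison shares its 3 h libraries with that against untreated embryos, so its calls are not separate evidence.

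**Figure D4:**
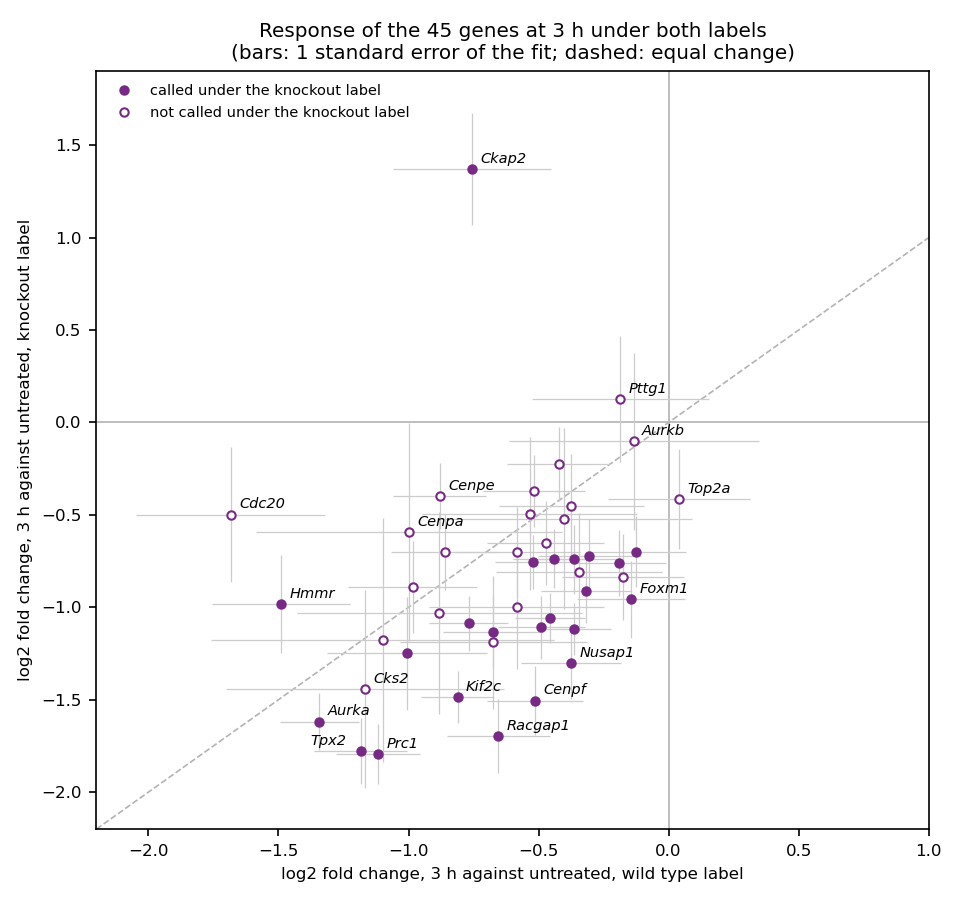
Log2 fold change at 3 h against untreated under the wild type label (horizontal axis) and under the knockout label (vertical axis) for each of the 45 genes, with bars of 1 standard error and a dashed line of equal change. Most genes lie below the line, Racgap1, Cenpf and Nusap1 among the farthest, while Cdc20 and Hmmr lie above it and Ckap2 stands alone at 1.37 on the vertical axis.

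At 3 h the labels differed at 10 of the 45 genes. In the knockout-labelled libraries 9 genes were lower, Foxm1, Nek2, Cenpf, Cdca8, Nusap1, Kif2c, Kif4, Prc1 and Racgap1, and Ckap2 was higher (5.07% and 5.25% of all genes). Ckap2 was 3.98-fold higher (log2 difference 1.99, SE 0.304, limma adjusted p = 0.00432). Racgap1 was 2.05-fold lower (-1.03, SE 0.199, limma adjusted p = 0.0136) and Nek2 1.63-fold lower (-0.70, SE 0.14, limma adjusted p = 0.0155). Without any 1 of the 4 libraries at 3 h the count was 1, Ckap2, whose adjusted p stayed between 0.00454 and 0.0487 over the 12 fits. With the block 22 genes were lower and 4 higher (18.5% and 9.67% of all genes), the latter being Ckap2, Cenpe, Hmmr and Cdc20. Without both untreated libraries numbered 2, which again bear on the spread alone, Ckap2 was the 1 gene called (6.23% of all genes), and with the block 16 were lower and 3 higher (19.8%).

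The difference of the 3 h responses tests directly whether the labels responded unequally. Of the 45 genes, 0 had a lower and 1, Ckap2, a higher response under the knockout label (0.856% and 2.59% of all genes). Next in p came Cenpf at -0.99 (SE 0.261, limma adjusted p = 0.0909) and Nek2 at -0.75 (SE 0.199, limma adjusted p = 0.0913). With the block, the difference was negative for 10 called genes and positive for 2 (7.39% and 5.99% of all genes). The 10 were Ccna2, Foxm1, Nek2, Cenpf, Cdca8, Tpx2, Nusap1, Kif2c, Prc1 and Racgap1, and the 2 were Ckap2 and Cdc20. There were 0 calls without both untreated libraries numbered 2 (0.552% of all genes), and 1 with the block, Ckap2 (2.48%). Cdc20 differed by 1.19 (limma adjusted p = 0.317, and 0.00685 with the block). For Aurka the difference was -0.28 with a 95% interval of -0.77 to 0.22, and for Ccnb1 it was -0.08 with -2.2 to 2.05, so neither equal nor clearly unequal responses of these genes can be read from 2 libraries a group.

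The size of the change was also read by promoter element. At 3 h under the knockout label the 26 genes with TTTGAA or TTCGAA near the start had a median log2 fold change of -0.78 and the 12 without had -0.83. The same medians were -0.56 and -0.47 under the wild type label. With matches anywhere in the promoter window the order under the knockout label turned, with -0.81 for 29 genes with and -0.75 for 9 genes without. For CCAAT before the start, the medians were -0.95 with (28 genes) and -0.72 without (10 genes) under the knockout label. These are descriptions of a chosen list and were not tested.

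Other genes of the pathway were read from lists that hold none of the 45. Among 45 further mitosis genes, 16 fell and 5 rose under the knockout label at 3 h (5.87% and 6.25% of all genes). With the block 25 fell and 6 rose (18.1% and 11.1% of all genes), and the median in the main fit was -0.72. Of this list 5 fell and 3 rose without both untreated libraries numbered 2, the latter being Gtse1, Kif18b and Kifc1. Under the wild type label 0 were called (0.00% of all genes), 7 fell with the block (0.148%), and the median was -0.38. Plk1, the gene of a kinase that works beside Aurora A, had the smallest p, with 171 and 190.04 TPM untreated and 36.2 and 40.8 TPM at 3 h. The 5 that rose were Gtse1, Psrc1, Kif18b, Kifc1 and Spc25, of which Gtse1 and Kif18b are named by p and the others were singled out after their values were seen. Gtse1, whose product binds p53 and microtubules, stood at 34.01 and 39.99 TPM untreated and 197 and 266 TPM at 3 h under the knockout label and at 34.2 and 46 and 22.1 and 22.5 TPM under the wild type label. Kif18b, a motor at growing microtubule ends, stood at 26.8 and 28.8 and 71.4 and 75.3 TPM under the knockout label (log2 fold change 1.37, limma adjusted p = 0.000402). Ckap2 was thus not the single mitosis gene with a higher level at 3 h under the knockout label.

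Of 16 genes of the MuvB, DREAM and B-MYB machinery, 15 were tested, and under the knockout label 1 fell and 2 rose, or 4 and 3 with the block, and 0 and 1, Mybl1, without both untreated libraries numbered 2. At 3 h under that label 5.87% of all genes fell and 6.25% rose, or 18.1% and 11.1% with the block. These shares apply to the next lists too. E2f4, the E2F subunit of DREAM, stood at 142 and 123 TPM untreated and 73.5 and 75.9 TPM at 3 h (log2 fold change -0.81, limma adjusted p = 0.0122). Mybl1, the gene of A-MYB, rose from 1.75 and 2.38 to 22.3 and 30.04 TPM (3.14, limma adjusted p = 0.000526), and Nfyb, a subunit of NF-Y, rose by 0.85 on the log2 scale (limma adjusted p = 0.0309). Of 10 genes of the G2 checkpoint and CDK1 inhibition, 4 rose: Cdkn1a, Rprm, Chek2 and Gadd45a. With the block 2 fell and 5 rose, and without both untreated libraries numbered 2 the calls were Cdkn1a, Rprm and Chek2. Rprm, the gene of reprimo, which is known to hold cells in G2, stood at 18.9 and 21.8 TPM untreated and 81.5 and 66.1 TPM at 3 h (1.81, limma adjusted p = 0.000281). Chek2, a checkpoint kinase gene, stood at 19.97 and 18.8 and 43.1 and 42.9 TPM (1.11, limma adjusted p = 0.00186). The 30 genes of G1/S and replication, which mark the preceding phases, had 1 that fell, Ccne1 (cyclin E1, 104 and 85.6 TPM untreated and 51.7 and 52.2 TPM at 3 h), and a median of -0.16 against -0.84 for the mitotic genes and -0.12 for all genes. With the block 3 fell and 2 rose. Under the wild type label 0 genes of these 4 lists were called in the main fit, and with the block 0 outside the further mitosis genes. The G1/S median there was 0.28 against -0.52 for the mitotic genes. Between the labels at 3 h the G1/S genes differed about as much as the mitotic genes, with medians of -0.40 and -0.36, against -0.16 over all genes. Of the 30, 3 were lower under the knockout label, and 16 with the block (5.07% and 18.5% of all genes). For the G1/S genes the difference of the 3 h responses had a median of -0.43, with 28 of 30 negative. The mitotic genes had -0.30 and 33 of 45, and the median over all genes was -0.15. Of the G1/S genes 1 was called for this difference, or 9 with the block (3.45% and 13.4% of all genes).

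Markers of cell types were read beside these changes. At 3 h under the knockout label 12.1% of all genes were called, and 29.2% with the block, so 1 call in a short list says little. At 3 h under the knockout label 4 of 4 neural progenitor markers fell (Sox2, Sox1, Pax6 and Pou3f2, median log2 fold change -2.55), and their summed level was 27.3 to 33.7 TPM, against 177 to 188 TPM in the untreated libraries of that label. With the wild type label 0 of 4 were called, with sums of 148 to 178 TPM at 3 h and 168 to 170 TPM untreated. Primitive erythroid markers rose under the knockout label, 4 of 5 and 5 of 5 with the block, with sums of 11075 to 13355 TPM at 3 h and 1931 to 5010 TPM untreated. The erythroid sums under the wild type label were 4518 to 6530 TPM at 3 h and 5803 to 5994 TPM untreated. Among 5 postmitotic neuron markers 1 fell (1 with the block), among 4 tested somite markers 1 fell (2 with the block), and among 5 endothelial markers 1 rose (3 with the block) under the knockout label. The visceral endoderm sums under the wild type label were 73.2 to 106 TPM at 3 h and 33.4 to 65.8 TPM untreated. Both labels thus had higher sums at 3 h. Under the knockout label 6 of 6 of these markers had higher values, with a median log2 fold change of 2.0. Their sums there were 134 to 354 TPM at 3 h against 13.5 to 108 TPM untreated. Of the 6, 0 were called in the main fit and 1 with the block. Cardiac markers had higher values in 5 of 5 cases, with a median of 0.57 and sums of 1252 to 1975 TPM against 798 to 1414 TPM, of which 0 were called in the main fit and 2 with the block. Fits without both untreated libraries numbered 2 gave calls for 3 of 4 neural progenitor, 2 of 5 erythroid and 1 of 4 somite markers, and the cardiac median was 0.053. None of 3 tested white blood cell or 1 tested trophoblast and decidua markers was called with or without the block, and Tpbpa and Prl8a2, which define placental cells, were at 0 in all 12 libraries. The summed level of the 45 genes was 2691 to 3063 TPM at 3 h and 4710 to 5302 TPM untreated under the knockout label, and 3260 to 3552 TPM and 4850 to 5311 TPM under the wild type label. The part of the changed marker levels in the fall of the mitotic genes was not tested, and under the wild type label the neural progenitor sums at 3 h spanned those of the untreated libraries.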

How the data were processed

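The authors deposited TPM for 53647 gene IDs in 12 RNA-seq libraries, made from about 500 ng of RNA with poly(A) selection and paired reads of 75 bases, per the labels' protocols. Every column has the same sum, so depth is not kept. Per the submitters' processing notes, RSEM 1.3.3, HTSeq 0.12.3, STAR 2.7.3a, DESeq2 1.42.1 and R 4.3.3 were used on the build GRCm39. Their roles, the annotation release and the strand setting: not given in the sources used here. Values of close paralogs and overlapping genes are uncertain.

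Symbols were matched by gene ID for 52093 IDs (97.1%). Genes at 1 TPM or more in at least 2 libraries were tested (15535). On log2(TPM + 1), a scale that understates changes of low genes, limma 3.58.1 (R 4.3.3) fitted 1 mean per group over all 12 libraries with a trended spread (6 residual degrees of freedom, 5 with the block). Two-sided tests of 11 contrasts were adjusted by Benjamini-Hochberg over all genes, with calls at adjusted values under 0.05. The script was tested on simulated data. Figures used Python 3.11.15 and matplotlib 3.10.9.

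Library numbers come from the labels. In 15 pairs of groups the correlation of same-numbered deviations from the group means lay between 0.327 and 0.796 across genes, so the numbers were taken to pair the libraries. Alternatives were a pseudocount of 0.1, no filter, median-of-ratios size factors, no trend of the spread, the block, leaving out each library and leaving out both 1 h libraries numbered 2. The last was also joined with the block, and both untreated libraries numbered 2 were left out, alone and with the block. These were chosen after seeing the data.

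The 45 genes, the role groups, the other lists and the markers were chosen with earlier results of these data known. Values in every library are given for the 2 genes of each role group with the smallest p at 3 h under the knockout label, the 2 largest and 2 smallest changes there, and the 3 smallest p of each other comparison. Of other lists up to 3 called genes with the smallest p are named.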

Additional observations from a re-analysis of the deposited data

Results flagged for a closer look

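The difference of the 3 h responses between the labels, knockout minus wild type, passed the limma test for 11 of the named genes. Of all genes, 3.45% passed it, and many of the named genes were chosen by their change under the knockout label. Without both untreated libraries numbered 2 all 11 kept their sign and 3 were called, Gtse1, Kif18b and Cdkn1a. Ckap2, described above, had a difference of 2.13 on the log2 scale (adjusted p = 0.0343). Among further mitosis genes, Gtse1 differed by 3.41, Psrc1 by 2.66, Kifc1 by 2.1, Kif18b by 2.05 and Spc25 by 1.17 (limma adjusted p between 0.000926 and 0.0325). All 5 had higher values at 3 h under the knockout label and lower values at 3 h under the wild type label, in 2 of 2 libraries each. Psrc1, Kifc1 and Spc25 were named because they rose under the knockout label. Their higher values there were thus fixed by the choice, and their differences, which reuse the same libraries, are not separate evidence. Psrc1, the gene of a spindle protein, stood at 46.3 and 56.2 TPM untreated and 16.7 and 17.3 TPM at 3 h under the wild type label, and at 50.5 and 49.5 and 106 and 115 TPM under the knockout label. Kifc1, a minus-end motor, stood at 125 and 135 TPM at 3 h under the knockout label and 27.6 and 26.4 TPM under the wild type label, and Spc25, a kinetochore gene, at 150.1 and 154 and 62.5 and 77.8 TPM.

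Of the regulators, Mybl1 differed by 2.89, Chek2 by 1.34, Rprm by 1.97 and Cdkn1a by 6.0 (limma adjusted p between 4.66e-05 and 0.0120). Ccne1 differed the other way, by -1.32 (limma adjusted p = 0.0209), with 110.3 and 87.1 TPM untreated and 147 and 126 TPM at 3 h under the wild type label.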

How the results depend on the processing

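Shares of all genes called under the same setting stand in brackets, and "joint" means the block without both 1 h libraries numbered 2. The count of called genes at 3 h under the knockout label was 23, with 11 to 25 when 1 library was left out, 40 with the replicate block (29.2%), 41 joint (38.6%) and 9 without both untreated libraries numbered 2 (4.18%). Under the wild type label at 3 h it was 0, with 1 without the filter (0.0512%), 2 with size factors (0.0257%), 11 with the block (0.154%), 19 joint (0.333%), and 0 in every fit without 1 library. For 3 h against 1 h it was 18 under the knockout label (6 to 18 without 1 library), 38 with the block (29.1%), 35 joint (25.9%), 11 without both untreated libraries numbered 2 (6.77%) and 33 with the block as well (21.4%), and 0 under the wild type label, with 7 with the block (0.0837%) and 5 joint (0.0654%). The labels differed at 3 h for 10 genes (1 to 10 without 1 library), 26 with the block (28.1%), 31 joint (38.1%), 1 without both untreated libraries numbered 2 (6.23%) and 19 with the block as well (19.8%). For the difference of the 3 h responses the count of 1 became 0 without the filter (2.19%), 2 with size factors (4.53%), 2 without both 1 h libraries numbered 2 (3.10%), 12 with the block (13.4%), 22 joint (22.9%) and 0 without both untreated libraries numbered 2 (0.552%), with 0 to 1 without 1 library. At 1 h under the knockout label 0 became 4 joint (5.40%). The block alone changed no call at 1 h or before irradiation. The cause of these shifts was not tested, except that fits without libraries hold fewer samples. Signs at 3 h turned for Aurkb, Pttg1, Foxm1 and Top2a, in comparisons where they were not called. Aurkb under the knockout label was 0.013 with size factors and ran from -0.47 to 0.27 over the fits without 1 library (-0.46 to 0.19 under the wild type label). Over such fits Pttg1 ran from -0.074 to 0.33 under the knockout and from -0.45 to 0.081 under the wild type label, where Foxm1 ran from -0.31 to 0.023 and Top2a from -0.13 to 0.21. Without both untreated libraries numbered 2 Aurkb was 0.27 under the knockout and 0.19 under the wild type label and Foxm1 0.023 under the latter. Size factors moved the median of all genes at 3 h under the knockout label from -0.12 to -0.02. With unknown depth and 2 libraries a group, small changes could not be resolved.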
